A study of Mus musculus with 8 samples.

Results

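The genes described here are the mouse Zfp genes, those whose symbol is Zfp followed by a number and at most a single letter, without Zfp36. Of 52459 rows in the deposited count table, 399 had such a symbol, and 242 of these reached the floor of 10 counts in each of the 8 libraries. Of the others, 61 had 0 counts in every library and 96 were counted but fell under the floor in at least 1 library. The members were therefore chosen by their level, and their presence in every library is a property of the rule and not a result. The set is held together by its name, so the proteins were also sorted by what they contain. By a scoring window run on the proteins of the GENCODE mouse annotation (release vM21, GRCm38), 132 of the 242 scored as carrying a KRAB box. The other 110 scored under the line. The window was built from proteins with the common core of the box, so a variant box can score under the line. Members said to lack the box are those under the line. KRAB members had a median of 12 zinc fingers (0 to 33, the most in Zfp619), and members lacking the box had a median of 7 (0 to 37, the most in Zfp142). For 5 members, Zfp185, Zfp330, Zfp703, Zfp839 and Zfp935, no finger of the classical C2H2 pattern was found.

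A C2H2 zinc finger is a short loop of protein folded around a zinc ion, and a string of such fingers reads a DNA sequence. In the KRAB zinc finger proteins the fingers are joined to a KRAB box, which binds the corepressor KAP1 (the product of Trim28). KAP1 brings in the histone methyltransferase SETDB1 and HP1 proteins, and the targets, often transposable elements, are packed into heterochromatin. KRAB zinc finger genes arose by repeated duplication and lie in clusters of close relatives on a few chromosomes. Zfp genes lacking the box are a mixture of transcription factors, RNA-binding proteins and ubiquitin ligases.

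The libraries came from leukaemia cells of the spleen. Bone marrow cells of C57BL/6J mice that express cKit were infected with a retrovirus that carries AE9a. AE9a is a shortened RUNX1-RUNX1T1 fusion that causes acute myeloid leukaemia. The marrow cells had the genotype RTA shTet2, with a hairpin against Tet2 that is made while the animal eats doxycycline. Recipients were lethally irradiated C57BL/6J mice aged 6 to 8 weeks, given 50000 leukaemia cells with 500000 support marrow cells, and AE9a-positive spleen cells were taken once the mice were moribund. Among the secondary recipients, mice 28 and 30 ate doxycycline throughout and were treated with ascorbate. Mice 21 and 23, labelled Tet2-restored, had doxycycline withdrawn and received the PBS vehicle. Mouse 12, a primary recipient on doxycycline, is a group of 1 library. The controls are mice 16, 17 and 19, secondary recipients that stayed on doxycycline with PBS, called the PBS knockdown libraries. Each library is 1 mouse. All groups share the virus and the irradiated host, and the withdrawal of doxycycline cannot be told apart from the restoration of Tet2. The labels do not say from how many primary leukaemias the secondary recipients were grown, so p-values measure the spread between these mice.

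Totals ran from 18136978 to 34197877 counts per library. Levels in CPM are scaled to TMM-adjusted library totals. Tet2 stood at 13.8 and 11.7 CPM in the ascorbate libraries, 14.1 and 23.1 CPM in the libraries labelled Tet2-restored, 9.26 CPM in the primary library and 12.6 to 13.4 CPM in the PBS knockdown libraries. Mouse 21 was thus near the knockdown level, and mouse 23 was the only library well above it. Runx1t1, part of the fusion, was at 101 to 304 CPM in every library, Kit at 54.4 to 206 CPM, and Mpo at 6.33 CPM or less. Myb, a progenitor transcription factor, had 180 and 265 CPM with ascorbate, 257 and 195 CPM in the labelled restored libraries, 452 CPM in the primary library and 418, 280 and 348 CPM with PBS. The 6 progenitor markers summed to 430 and 472 CPM with ascorbate, 505 and 583 CPM in the labelled restored libraries, 872 CPM in the primary library and 686, 445 and 591 CPM with PBS. The 10 macrophage markers summed to 36.9 and 39.9 CPM with ascorbate, 45.2 and 13.1 CPM in the labelled restored libraries, 74.4 CPM in the primary library and 99.7 to 124 CPM in the PBS knockdown libraries. The 7 erythroid markers found in the table summed to 3961 to 12290 CPM, and T cell markers to 2.69 CPM or less. In such bulk libraries fewer cells of a type and less RNA per cell cannot be told apart.

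Most Zfp genes were weakly expressed. Mean FPKM, which divides by transcript length and so allows levels to be compared between genes, ran from 0.143 to 63.2 with a median of 3.67. KRAB members were lower, with a median of 2.34 FPKM against 5.42 FPKM for members lacking the box. In all, 33 members were under 1 FPKM and 30 were over 10 FPKM, of which 5 had a KRAB box and 25 did not. The highest was Zfp207, a spindle and kinetochore protein, with a mean of 63.2 FPKM. Zfp35 followed with 37.4 FPKM, Zfp385a, a factor of megakaryocyte maturation in mice, with 35.8 FPKM, and Zfp106, an RNA-binding protein, with 30.8 FPKM. Next came Zfp362 with 25.7, Zfp592 with 25.5, Zfp91 (a ubiquitin ligase) with 24.7 and Zfp598 (a ubiquitin ligase that acts on collided ribosomes) with 23.4 FPKM. The highest KRAB member was Zfp110, which encodes a neurotrophin receptor partner, with 23.1 FPKM. Together the members took 0.588% to 0.795% of all counts in a library. Members had a median length of 4645 bases, recovered from count over FPKM, against 4091 bases for all 10307 genes that met the floor.

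With ascorbate, most KRAB members had estimates below 0, and those of the members lacking the box were spread evenly around 0. Of the 242 members, 17 fell and 3 rose against the PBS knockdown libraries at an adjusted p below 0.05 in edgeR's quasi-likelihood test, which is 8.26% of members against 2.86% of the 12137 genes tested. The share that fell was 7.02% of members against 1.77% of all genes, and the share that rose was 1.24% against 1.09%. The median log2 fold change was -0.33 over members and -0.01 over all genes tested, and 166 of 242 estimates were below 0. Genes with other names that were similar in length and level and met the same floor numbered 3577, with a median of -0.13 and 4.36% past the threshold. Among the 132 KRAB members the median was -0.58, 111 estimates were below 0, and in edgeR's test 10 genes fell (7.58%) and none rose. Of these members, 4 had an unadjusted p below 0.05 and an estimate above 0. DESeq2 called 42 of them lower and 4 higher, against 11.0% of all genes. Among the 110 members lacking the box the median was 0.00, 55 estimates were below 0, 7 genes fell (6.36%) and 3 rose (2.73%). The share called by edgeR was 9.09% in this set and 7.58% in KRAB members, so edgeR's calls were not concentrated in KRAB members. The 42 and 4 KRAB calls of DESeq2 were among 71 over all members, so this reading covers edgeR's test only. Genes similar to the KRAB members in length and level numbered 2039 and had a median of -0.18, with 4.95% past the threshold. In 70 KRAB members (53.0%) both ascorbate libraries lay below all 3 PBS libraries, where 23.5% of all genes tested did so. In 11 (8.33%) both lay above them, where 22.4% of all genes did so. Of the 2039 genes similar to the KRAB members in length and level, 713 had both below and 323 (15.8%) had both above. Of 1145 genes also similar in GC content, 42.4% had both below and 10.7% had both above. KRAB members thus differed less from these matched genes than from all genes.

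The calls rest on few libraries. Without mouse 16, 28 or 30 none of the 242 members passed the threshold, although 76, 78 and 79 of them had an unadjusted p below 0.05, and the calls over all genes fell to 5, 2 and 7. Without mouse 19 only Zfp322a passed among members, with 15 calls over all genes (0.125%). Without mouse 17 there were 9 members, with 87 calls over all genes (0.722%). The sign of each of the 20 called members was the same in every count-based fit and with each library left out. Without mouse 16 the median over members was -0.18, the KRAB median was -0.41 and the gap between members and similar genes was -0.07. Mice 21 and 23 enter this comparison through the shared estimate of spread, the filter on low counts and the scaling. Without either of them, calls went up among members and over all genes alike. The Wald test of DESeq2 called 61 members lower and 10 higher, against 11.0% of all genes.

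Both ascorbate libraries had low KRAB medians. Taking each gene's log2 CPM (with 0.1 added) minus its mean over the 3 PBS knockdown libraries, the KRAB members had medians of -0.51 in mouse 28 and -0.53 in mouse 30. In the labelled restored libraries these medians were -0.09 in mouse 21 and -0.11 in mouse 23, and in the primary library 0.16. The PBS knockdown libraries were themselves apart, at 0.28 in mouse 16, -0.25 in mouse 17 and -0.03 in mouse 19. In mouse 16 only 7 of 132 KRAB members were below the PBS mean, and in mouse 17 114 were. KRAB genes thus differed together between mice given the same treatment, and both ascorbate medians lay below the lowest PBS median. Members lacking the box had medians within 0.1 of 0 in every library (-0.04 and -0.05 with ascorbate, 0.08, -0.09 and -0.01 with PBS). The KRAB members summed to 1591 and 1520 CPM with ascorbate, 1746 and 1935 CPM in the labelled restored libraries, 2260 CPM in the primary library, and 2458, 1679 and 1950 CPM with PBS.

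**Figure D1:**
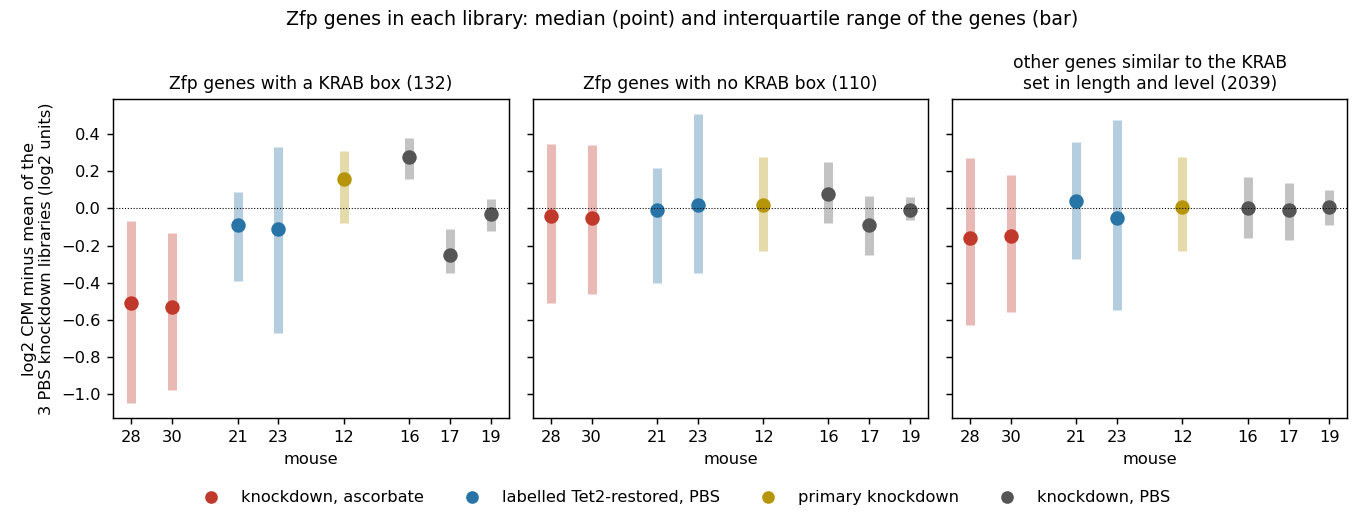
Median (point) and interquartile range (bar) of log2 CPM minus the mean of the 3 PBS knockdown libraries, per mouse, for 132 Zfp genes with a KRAB box, 110 with none, and 2039 other genes similar to the KRAB members in length and level; colours mark the groups. The KRAB medians of mice 28 and 30 (-0.51 and -0.53) are the lowest of the 8, and mice 16 and 17 (0.28 and -0.25) differ although both are PBS knockdown animals.

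Base composition moved with these differences. KRAB members had a median transcript GC content of 44.2%, members lacking the box 52.5%, and all genes that met the floor 50.6%. Across 10295 genes, the deviation of a library from the PBS mean followed GC content with a Spearman rho of 0.32 in mouse 28 and 0.20 in mouse 30 (ascorbate), 0.38 in mouse 21 and 0.26 in mouse 23 (labelled restored) and -0.37 in mouse 12 (primary). In the PBS knockdown libraries it was -0.54 in mouse 16, 0.47 in mouse 17 and 0.14 in mouse 19. These are correlations across genes of a single library, which are not independent replicates. Mouse 21 had a steeper GC trend than either ascorbate library and a KRAB median of -0.09. Among 1145 genes similar to the KRAB members in length, level and GC content, the median with ascorbate was -0.29, which leaves a gap of -0.30 to the KRAB median, where matching on length and level alone left -0.40. A fit with an offset for length and GC content gave a KRAB median of -0.35 and a median over all members of -0.16 (all genes 0.01). In that fit 24 members passed the threshold, 19 lower and 5 higher, and 4.84% of all genes did. Myb was likewise below its PBS range with ascorbate and highest of the PBS libraries in mouse 16 and lowest in mouse 17, as the KRAB medians were. It was also below its PBS range in mice 21 and 23 (257 and 195 CPM), whose KRAB medians were -0.09 and -0.11. The summed macrophage markers were lower in the ascorbate libraries too, and lower still in mouse 23, whose KRAB median was -0.11. Slc40a1 was the most abundant of these markers in every library. Adgre1, C1qb and C1qc overlapped between ascorbate and PBS, and the rest lay below every PBS library with ascorbate. The part of GC content, of cell makeup and of the mitochondrial share (17.1% and 9.73% of counts with ascorbate, 9.09% to 11.4% with PBS) in the KRAB difference was not tested.

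**Figure D2:**
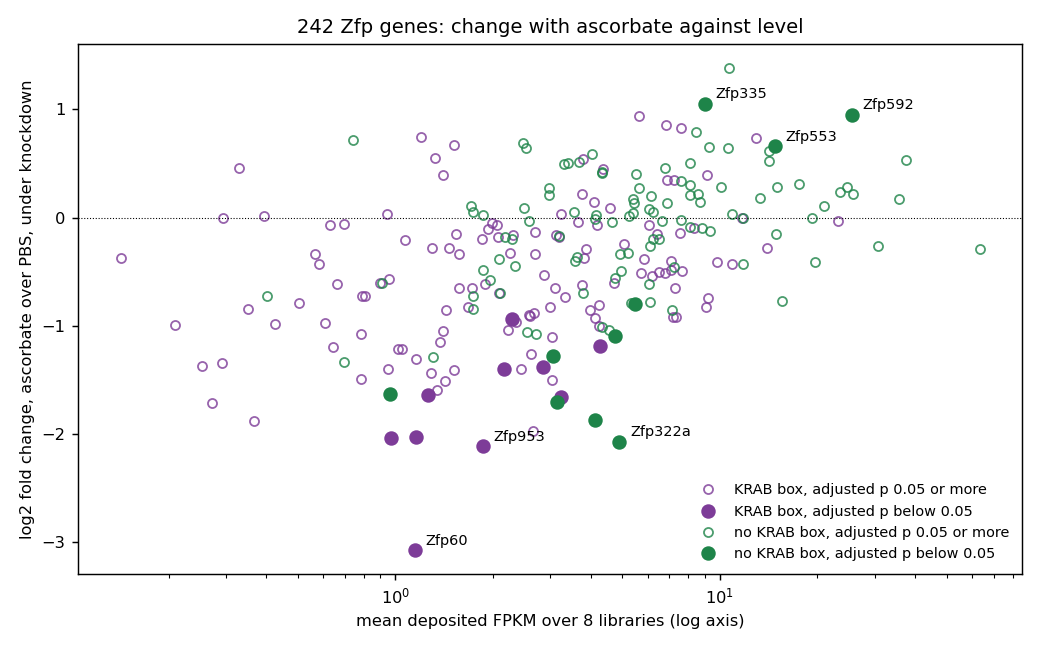
Log2 fold change of the 242 Zfp genes, ascorbate over PBS under sustained knockdown, against mean deposited FPKM over 8 libraries (log axis), coloured by KRAB box; filled points have an adjusted p below 0.05. The 3 genes that rose (Zfp592, Zfp335 and Zfp553) have no KRAB box and lie between 8.98 and 25.5 FPKM, and Zfp60 has the lowest estimate at -3.07.

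Zfp60, a KRAB gene of chromosome 7, had the largest change. It stood at 1.83 and 1.59 CPM with ascorbate, 9.16 and 3.03 CPM in the labelled restored libraries, 19.6 CPM in the primary library and 20.3, 9.57 and 12.8 CPM with PBS. Both ascorbate libraries were far below every PBS library, and the labelled restored ones lay between. The log2 fold change with ascorbate was -3.07 (SE 0.53, edgeR adjusted p = 0.0298). Zfp953 and Zfp595 are KRAB genes that neighbour each other on chromosome 13. Zfp953 had 2.93 and 2.89 CPM with ascorbate, against 16.5, 8.46 and 12.4 CPM with PBS, a log2 fold change of -2.11 (SE 0.38, edgeR adjusted p = 0.0322). Zfp595 had 2.14 and 2.30 CPM with ascorbate, against 11.2, 7.14 and 8.68 CPM with PBS, a change of -2.03 (SE 0.33, edgeR adjusted p = 0.0291). Another gene of that cluster, Zfp456, had 1.96 and 1.25 CPM with ascorbate, against 7.71, 4.97 and 6.88 CPM with PBS. In all 3 the groups did not overlap. All 3 share exonic bases with the loci Gm28041, Gm28044 or Gm17039, so reads of these overlapping genes cannot be told apart in the counts.

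The other KRAB genes that fell changed less. Zfp626, in the same chromosome 7 cluster as Zfp60, had 8.80 and 5.73 CPM with ascorbate, against 29.4, 18 and 20.4 CPM with PBS (log2 fold change -1.66). Zfp40 had 2.44 and 2.34 CPM with ascorbate, against 7.71, 7.31 and 7.28 CPM with PBS (-1.64). Zfp933 had 4.52 and 4.43 CPM with ascorbate, against 13.3, 10.4 and 11.5 CPM with PBS (-1.40). In these genes, and in Zfp994 (-1.38), Zfp324 (-1.19) and Zfp316 (-0.94), the ascorbate libraries lay below all PBS libraries, with edgeR adjusted p between 0.0298 (Zfp40 and Zfp933) and 0.0414 (Zfp324 and Zfp316). Of the 10 KRAB genes that fell, Zfp316 and Zfp324 had a transcript GC content of 61.2% and 55.3%, and the other 8 lay between 36.9% and 45.9%.

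Of the 7 genes lacking a KRAB box that fell, Zfp322a, a factor of pluripotency in mouse embryonic stem cells, had the smallest p of all members. It had 10.3 and 10.6 CPM with ascorbate, 22.3 and 14.1 CPM in the labelled restored libraries, 59.6 CPM in the primary library and 53.7, 35.6 and 41.2 CPM with PBS. The change with ascorbate was -2.07 (SE 0.27, edgeR adjusted p = 0.0155). Zfp397, whose protein has a SCAN domain in place of a KRAB box, had 12.8 and 13.5 CPM with ascorbate, against 62.4, 34.7 and 45.3 CPM with PBS. Zfp518a had 9.47 and 8.32 CPM with ascorbate, against 38.5, 21.2 and 26.5 CPM with PBS. Their log2 fold changes were -1.87 and -1.70, and neither group overlapped its controls. Zfp329 (-1.63), Zfp41 (-1.28), Zfp672 (-1.09) and Zfp664 (-0.80) complete the list. Zfp664 is unlike the others in that the labelled restored libraries, at 27.6 and 31.5 CPM, were as low as the ascorbate libraries at 29.5 and 32.4 CPM, with 65.2 CPM in the primary library and 51.6 to 57.2 CPM with PBS.

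The genes that rose with ascorbate lack the box and were well expressed. Zfp592, whose human counterpart is a partner of ZMYND8 in chromatin, had 277 and 292 CPM with ascorbate, 149 and 224 CPM in the labelled restored libraries, 149 CPM in the primary library and 148, 143 and 148 CPM with PBS. The PBS libraries were close together and both ascorbate libraries stood apart, a log2 fold change of 0.95 (SE 0.18, edgeR adjusted p = 0.0348). Zfp335, a cofactor of histone H3 lysine methyltransferase complexes needed for T cell maturation in mice, had 53.4 and 82.1 CPM with ascorbate, against 31.9, 35.2 and 30.8 CPM with PBS (1.05, SE 0.21, edgeR adjusted p = 0.0394). Zfp553 had 80.9 and 79.1 CPM with ascorbate, against 49.4, 52.3 and 48.9 CPM with PBS (0.66, SE 0.15, edgeR adjusted p = 0.0459). Zfp335 and Zfp553 share exonic bases with other genes (Pcif1 and Zfp335os, and Sept1). Zfp628, with 63.2 and 55.0 CPM with ascorbate and 18.3, 26.1 and 23.4 CPM with PBS, had a larger estimate of 1.38 but did not pass (edgeR adjusted p = 0.0777).

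**Figure D3:**
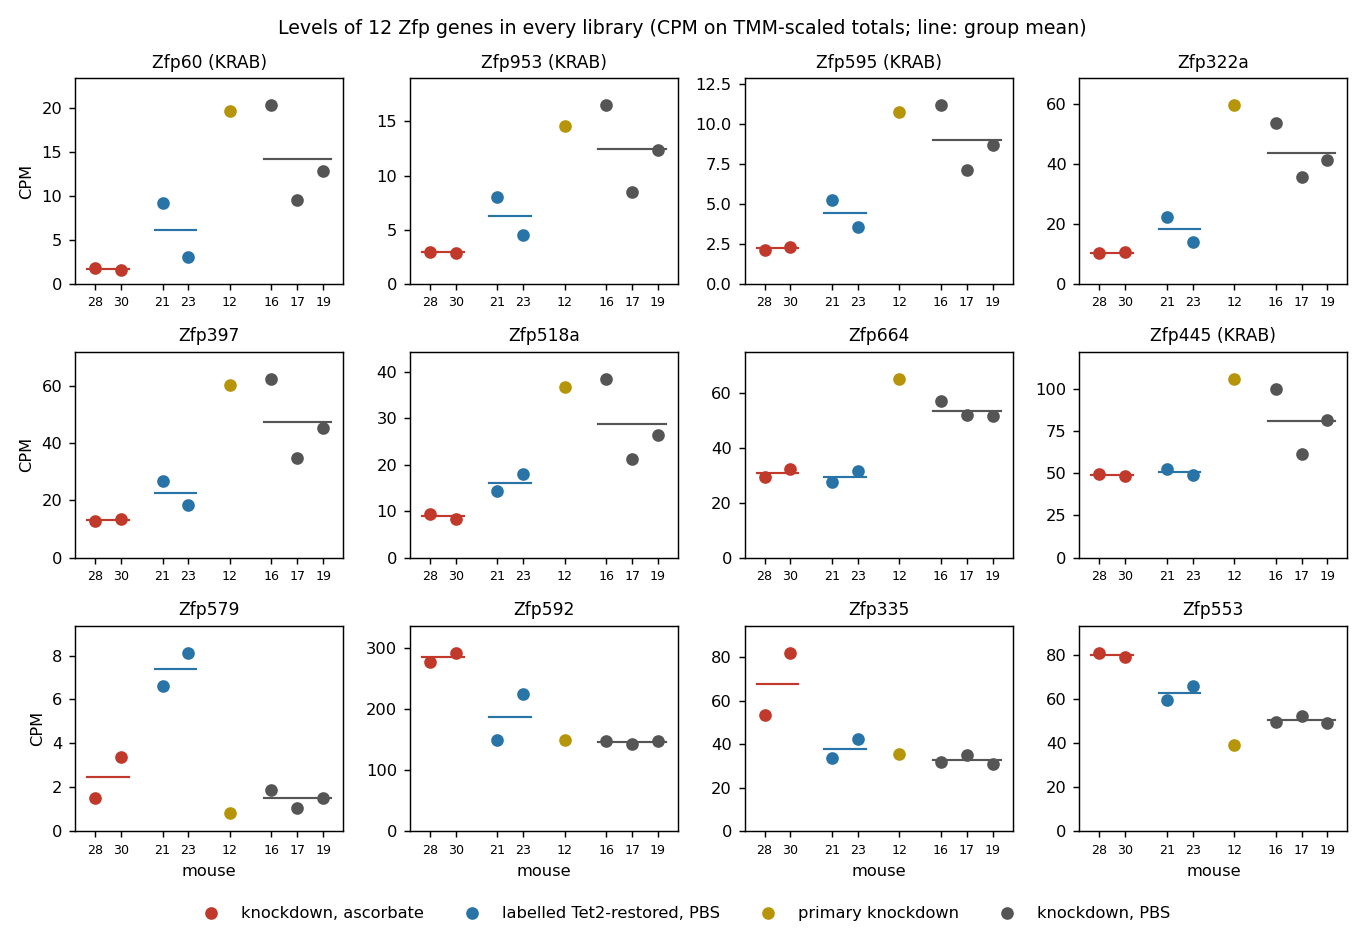
CPM of 12 Zfp genes in each mouse on linear axes that start at 0, with lines at the group means where a group has more than 1 library; colours mark the groups. Zfp60 has 1.83 and 1.59 CPM with ascorbate and 9.57 to 20.3 CPM with PBS, Zfp592 has 277 and 292 CPM with ascorbate and 143 to 148 CPM with PBS, and Zfp579 is highest in the labelled restored mice (6.60 and 8.13 CPM).

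The promoters of 3 genes that fell and 1 that rose are printed because Zfp60, Zfp595 and Zfp953 are among the members with the largest falls and their start regions share a short sequence, while Zfp592 has the smallest p of those that rose. Each runs from 250 bases before to 50 after the start, 5′ to 3′ on the gene's strand, from RefSeq (GRCm38.p6). Zfp60 lies at chr7:27731159-27731458 (+), Zfp595 at chr13:67332511-67332810 (-), Zfp953 at chr13:67360523-67360822 (-) and Zfp592 at chr7:80993434-80993733 (+). The windows of the neighbours Zfp595 and Zfp953 are alike over long stretches, so the short sequence is not an independent occurrence in each. Capitals mark ACTACANNTCCC, where N is any base, on either strand.
Zfp60: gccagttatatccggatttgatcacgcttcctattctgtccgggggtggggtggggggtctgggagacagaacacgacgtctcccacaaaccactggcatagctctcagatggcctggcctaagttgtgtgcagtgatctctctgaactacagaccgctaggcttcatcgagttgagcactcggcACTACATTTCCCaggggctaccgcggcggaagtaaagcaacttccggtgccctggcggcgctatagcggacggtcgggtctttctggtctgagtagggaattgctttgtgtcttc
Zfp595: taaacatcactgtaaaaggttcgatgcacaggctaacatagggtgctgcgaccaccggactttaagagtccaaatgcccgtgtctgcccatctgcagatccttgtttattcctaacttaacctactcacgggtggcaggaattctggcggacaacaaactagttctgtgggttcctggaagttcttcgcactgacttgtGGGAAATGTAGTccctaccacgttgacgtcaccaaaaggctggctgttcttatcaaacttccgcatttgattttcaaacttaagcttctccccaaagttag
Zfp953: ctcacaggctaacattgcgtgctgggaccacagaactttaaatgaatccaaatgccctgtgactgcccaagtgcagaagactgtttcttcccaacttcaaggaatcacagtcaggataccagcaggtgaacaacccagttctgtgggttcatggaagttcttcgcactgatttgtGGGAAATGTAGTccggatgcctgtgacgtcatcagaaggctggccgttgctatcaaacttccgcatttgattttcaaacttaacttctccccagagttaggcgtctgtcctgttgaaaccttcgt
Zfp592: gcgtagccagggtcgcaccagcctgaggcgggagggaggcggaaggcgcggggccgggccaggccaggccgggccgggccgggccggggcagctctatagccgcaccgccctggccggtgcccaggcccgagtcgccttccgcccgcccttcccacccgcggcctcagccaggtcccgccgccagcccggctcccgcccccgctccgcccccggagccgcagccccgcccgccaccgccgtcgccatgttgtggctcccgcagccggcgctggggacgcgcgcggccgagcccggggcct
The marked letters, chosen after the windows of genes that fell had been read, are the core of a sequence that ZNF143, the human counterpart of the member Zfp143, is known to bind. They occurred in 27 of 118 KRAB members with a window in the RefSeq table (22.9%) and in 8 of 88 members lacking the box (9.09%). Close relatives were each counted, so these genes are not independent. The share was 5.03% of 7826 genes that met the count floor and 1.93% of all 27025 genes in the table. Where a gene had several windows, members were given the one nearest the annotated gene start. The genes of these 2 wider sets were given the one of lowest coordinate, so their shares are not strictly comparable with those of the members. Since the letters were picked from genes that fell, the share was also taken without every called gene: 22 of the remaining 109 KRAB members held them (20.2%). How the letters relate to the change with ascorbate was not tested. Zfp143 itself had 42.7 and 54.5 CPM with ascorbate, against 35.9, 26.6 and 30.3 CPM with PBS, an estimate of 0.64 that did not pass (edgeR adjusted p = 0.103). CG dinucleotides, the usual site of the 5-methylcytosine that Tet2 oxidises, numbered 17 in the Zfp60 window, 10 in that of Zfp595, 8 in that of Zfp953 and 42 in that of Zfp592. The median was 12 in KRAB members, 20.5 in members lacking the box and 21 in genes that met the floor, whose windows were picked by the other rule. Methylation was not measured in these libraries.

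Neighbouring Zfp genes less than 500 kb apart formed 12 clusters of 5 or more members, which held 105 of the 242. In 3 of the 4 clusters made up only of KRAB genes every estimate with ascorbate was below 0, and in the other, at chr8:69209038-69791178, 4 of 5 were. The cluster at chr13:66669928-67827002 had 17 members, all with a KRAB box. Its median with ascorbate was -1.05, every estimate was below 0 (-2.11 to -0.05), and 3 genes fell. The cluster at chr7:27689340-28014115 had 8 members, all KRAB, with a median of -1.23 and every estimate below 0 (-3.07 to -0.34). The cluster at chr9:20345136-20605409 had 5 members, all KRAB, a median of -0.85 and every estimate below 0. On chromosome 17, the cluster at chr17:21008903-23599487 had 19 members, 18 of them KRAB, and a median of -0.73. Clusters with fewer KRAB genes went both ways. The cluster at chr7:4915217-5053723, with 5 members and none of them KRAB, had a median of 0.59, and that at chr7:127233061-127885996, with 4 KRAB genes among 10, had 0.24. The cluster at chr7:29768552-30169750, with 7 KRAB genes among 10, had a median of -0.61 and every estimate below 0, those of Zfp27 (-1.33), Zfp260 (-1.01) and Zfp146 (-0.15), which lack the box, included. The cluster at chr7:12415153-12985714, with 3 KRAB genes among 5, had a median of -0.60, and Zfp329 and Zfp324 fell. The other 3 mixed clusters had medians between -0.20 and 0.03. The 81 KRAB members in clusters had a median of -0.57, with 71 estimates below 0 and 8 genes that fell, and the 51 outside had a median of -0.60, with 40 below 0 and 2 that fell. The difference between them was not tested. Close relatives in a cluster, such as Zfp729a and Zfp729b or Zfp874a and Zfp874b, may share reads that the counting could not place, so values of single genes there are less certain.

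**Figure D4:**
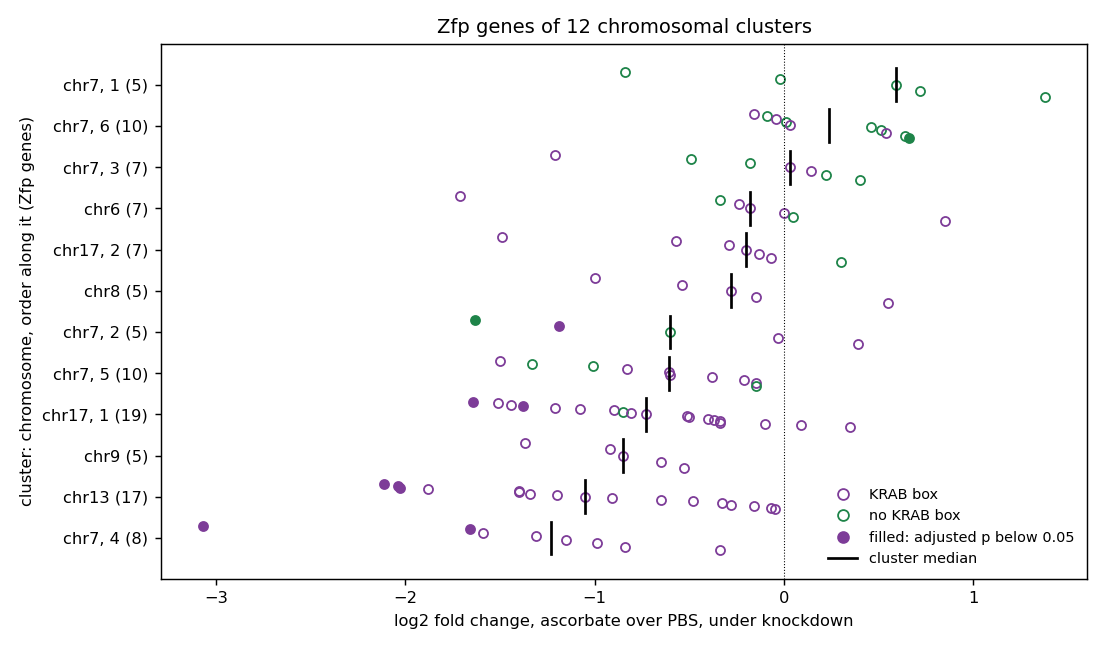
Log2 fold change of each Zfp gene, ascorbate over PBS under sustained knockdown, in the 12 chromosomal clusters of 5 or more members, named by chromosome and order along it, with the number of members in parentheses; purple has a KRAB box, green has none, filled points have an adjusted p below 0.05 and the black line is the cluster median. All 17 genes of the chromosome 13 cluster and all 8 of the lowest chromosome 7 cluster lie below 0.

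Within the KRAB members, the estimate varied with finger number and level. The median with ascorbate was -0.24 in 5 KRAB members with 0 to 5 fingers, -0.19 in 40 with 6 to 10, -0.61 in 50 with 11 to 15 and -0.88 in 37 with 16 or more. In members lacking the box the medians of the same classes were 0.00, -0.03, 0.02 and 0.05 (46, 35, 16 and 13 genes). Split by level into 3 equal classes of all members, KRAB medians were -0.79 in the low class (67 genes), -0.48 in the middle class (47) and -0.33 in the high class (18), and in members lacking the box they were -0.52 (14 genes), -0.02 (33) and 0.08 (63). The KRAB members with 16 or more fingers were also the longest, with a median of 5330 bases, and the weakest, with a median of 7.55 CPM in the PBS libraries, so finger number, length and level cannot be told apart here. KRAB members that share exonic bases with another gene had a median of -0.61 (36 genes) and those that share none had -0.55 (96).

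Zfp genes with well-known roles gave 2 calls with ascorbate. Of 35 such genes, 31 were members, and only Zfp335 and Zfp592 passed the threshold, which is 6.45% against 2.86% of all genes tested. The 6 KRAB genes among them had estimates between -1.04 and -0.03 and did not pass. Zfp445, which protects imprinted methylation in mice, had 49.3 and 48.4 CPM with ascorbate, 52.3 and 49.2 CPM in the labelled restored libraries, 106 CPM in the primary library and 99.9, 61.3 and 81.9 CPM with PBS. Both the ascorbate and the labelled restored libraries lay below every PBS library (-0.74 with ascorbate, edgeR adjusted p = 0.0877). Zfp809, which silences murine leukaemia viruses in mouse stem cells, had 15.4 and 12.5 CPM with ascorbate, 15.3 and 18.5 CPM in the labelled restored libraries, 31.2 CPM in the primary library and 33.4, 19.1 and 25.7 CPM with PBS (-0.92 with ascorbate, edgeR adjusted p = 0.0889). Zfp568, a repressor of a placental Igf2 promoter in mice, had 12.7 and 18.9 CPM with ascorbate, 12.6 and 15 CPM in the labelled restored libraries, 33.9 CPM in the primary library and 34.9, 20.4 and 28.8 CPM with PBS (-0.83 with ascorbate, edgeR adjusted p = 0.119). For Zfp809 and Zfp568, too, the ascorbate and labelled restored libraries were below the PBS range. Zfp369 (Nrif2, a neurotrophin receptor partner) was just short of the threshold, with 8.37 and 9.62 CPM with ascorbate, against 21.8, 14.0 and 19.5 CPM with PBS (-1.04, edgeR adjusted p = 0.0527). Its relative Zfp110 (Nrif1) had 85.5 and 100 CPM with ascorbate and 83.2 to 110 CPM with PBS, and the groups overlapped.

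Among those that scored under the line for a KRAB box, the ribosome factors Zfp598 and Zfp622 overlapped between ascorbate and PBS. Zfp598 had 82.5 and 95.6 CPM with ascorbate and 66.7 to 87.7 CPM with PBS, and Zfp622, a factor of large ribosomal subunit assembly, had 66.0 and 57.9 CPM with ascorbate and 52.4 to 61.1 CPM with PBS. Zfp638, an RNA and DNA binding protein that silences unintegrated retroviral DNA in human cells, had 51.6 and 69.0 CPM with ascorbate, 66.4 and 41.8 CPM in the labelled restored libraries, 139 CPM in the primary library and 129, 82.9 and 99.1 CPM with PBS. All 4 ascorbate and labelled restored libraries lay below the PBS range, with estimates of -0.79 for ascorbate (edgeR adjusted p = 0.117) and -0.94 for the labelled restored libraries (edgeR adjusted p = 0.0671). The RNA-binding proteins Zfp346 and Zfp326 had estimates of -0.78 and -0.48 with ascorbate, neither past the threshold. Zfp346 had 18.5 and 18 CPM with ascorbate, against 36.2, 29.7 and 27 CPM with PBS, and did not overlap. Zfp326 had 11 and 10.2 CPM with ascorbate, against 17.1, 9.65 and 17.2 CPM with PBS, and overlapped. Zfp217, amplified in human breast cancers, had 105 and 118 CPM with ascorbate, against 83.4, 63.9 and 71.2 CPM with PBS, an estimate of 0.61 (edgeR adjusted p = 0.0764). Zfp207, Zfp281, Zfp384, Zfp746 and Zfp830 had estimates between -0.29 and 0.34, and for Zfp830, a splicing and genome maintenance protein, all 8 libraries lay between 17.7 and 21.4 CPM.

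In the libraries labelled Tet2-restored, no member passed the threshold against the PBS knockdown libraries, and neither did any of the 12137 genes (0.0%). The smallest adjusted p over all genes and over members was 0.0502 in edgeR's test, just above the threshold, and 63 members (26.0%) had an unadjusted p below 0.05, against 29.2% of all genes. DESeq2 called 25 members lower and 9 higher, against 16.1% of all genes. Without mouse 21, whose Tet2 level was near the knockdown level, edgeR called 15 members lower and 20 higher and 13.3% of all genes. The median was -0.09 over members, -0.14 over KRAB members and 0.01 over those lacking the box, against 0.00 over all genes. Both labelled restored libraries lay below all PBS libraries in 63 members (26.0%, against 24.5% of all genes) and above them in 46 (19.0%, against 24.9%). This comparison and that with ascorbate use the same 3 PBS libraries, so the 2 sets of values are not independent. The members with the smallest p below 0 were Zfp664 (-0.86), Zfp322a (-1.26), Zfp260 (-1.23), Zfp251 (-0.92), Zfp397 (-1.07) and Zfp672 (-0.68). Zfp260 had 16.8 and 12.0 CPM in the labelled restored libraries, against 42.7, 24.8 and 33.8 CPM with PBS. The members with the smallest p above 0 were Zfp579 (2.30), Zfp688 (1.22), Zfp1 (1.0), Zfp362 (0.86), Zfp707 (0.74) and Zfp865 (0.68). Zfp579 had 6.60 and 8.13 CPM in the labelled restored libraries, 0.824 CPM in the primary library and 1.90, 1.07 and 1.51 CPM with PBS, with 1.53 and 3.39 CPM under ascorbate. It shared the edgeR adjusted p of 0.0502 with Zfp664 and Zfp322a.

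Set directly against the ascorbate libraries, the labelled restored libraries had higher KRAB estimates, with no call. No member passed the threshold, and 1 of 12137 genes did (0.00824%). Of the members, 61 (25.2%) had an unadjusted p below 0.05, against 16.2% of all genes, and DESeq2 called 17 members higher and 3 lower, against 3.66% of all genes. The median was 0.22 over members and 0.01 over all genes, 0.38 over KRAB members and 0.03 over those lacking the box. Genes similar to the KRAB members in length and level had 0.20. In 70 KRAB members (53.0%) both labelled restored libraries were above both ascorbate libraries, and in 6 (4.55%) both were below. Of all genes, 22.8% were above and 22.1% below. Genes similar to the KRAB members in length and level gave 35.4% above and 13.3% below. Those also similar in GC content gave 35.9% above and 11.5% below. Zfp213, a SCAN gene, had the smallest p, with 22.5 and 28.7 CPM in the labelled restored libraries and 12.9 and 10.6 CPM with ascorbate (1.14, SE 0.23, edgeR adjusted p = 0.111). Zfp316 had 22.7 and 20.2 CPM in the labelled restored libraries and 11.5 and 9.99 CPM with ascorbate, and its PBS libraries, at 19.0, 21.6 and 20.9 CPM, overlapped the labelled restored ones. Zfp113 had 20.9 and 26.3 CPM in the labelled restored libraries and 11.3 and 5.69 CPM with ascorbate. The next smallest p above 0 belonged to Zfp784 (1.37), Zfp846 (1.63) and Zfp329 (1.28). Below 0 the smallest p belonged to Zfp609 (-0.93), Zfp335 (-0.83), Zfp954 (-0.93), Zfp143 (-0.71), Zfp592 (-0.60) and Zfp292 (-0.67). Zfp954, a KRAB gene, had 17.4 and 30.8 CPM in the labelled restored libraries and 49.1 and 43.1 CPM with ascorbate.

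The primary library differed little from the secondary PBS libraries in its Zfp genes. None of the 242 passed, against 15 of 13024 genes (0.115%, 0.0461% lower and 0.0691% higher), and 12 members (4.96%) had an unadjusted p below 0.05, against 9.08% of all genes. With a single primary library the difference has no replicate of its own, and its spread was assumed to be that of the other groups. DESeq2 called 1 member, lower, against 1.7% of all genes, and limma voom called 2, higher. The primary library lay below all PBS libraries in 52 members (21.5%, against 29.7% of all genes) and above them in 71 (29.3%, against 31.8%). The median was 0.09 over members and -0.01 over all genes, 0.15 over KRAB members and 0.01 over those lacking the box, and without mouse 16 the median over members was 0.24. Zfp385a had the smallest p, with 35.7 CPM in the primary library and 60.7, 122 and 77.2 CPM in the PBS libraries (-1.28, SE 0.36, edgeR adjusted p = 0.274). Zfp850, a KRAB gene of the chromosome 7 cluster, had 21.0 CPM in the primary library and 12.7, 7.35 and 8.53 CPM with PBS (1.14, edgeR adjusted p = 0.292). Zfp386 had 10.1 CPM in the primary library and 3.39, 0.903 and 0.861 CPM with PBS, and was high in mouse 23 as well, at 7.73 CPM.

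Among the 3 PBS knockdown mice the members had a median coefficient of variation of 17.9%. The widest ranges were in KRAB genes. Zfp709 had 8.88, 0.739 and 5.81 CPM in mice 16, 17 and 19, and Zfp763 had 6.21, 2.75 and 1.22 CPM. Zfp758, at 29.7, 13.1 and 23.3 CPM, was the most abundant of the 6 members with the widest ranges, which also include Zfp386, Zfp945 and Zfp808. In 5 of these 6, mouse 16 was the highest, and in Zfp945 mouse 19 was (1.65 CPM, against 1.33 CPM in mouse 16 and 0.452 CPM in mouse 17).

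The floor bears on the weakly expressed end of the family. Just inside it were Zfp607b, whose lowest count was 10, and Zfp184, Zfp786 and Zfp945, whose lowest was 11. Just outside were Zfp128, Zfp174 and Zfp667 with a lowest count of 9, and Zfp383 with 8. Of the counted symbols under the floor, 21 had enough counts to be tested in the secondary comparisons, and 1 of them fell with ascorbate. Such symbols are tested only through the libraries where they are high, so no median over them is read. The gene that fell, Zfp719, a KRAB gene of chromosome 7, had 8 and 14 counts with ascorbate (0.489 and 0.585 CPM), 56 and 22 counts in the labelled restored libraries, 135 in the primary library and 172, 112 and 182 counts with PBS (6.94, 4.60 and 6.53 CPM). Its log2 fold change with ascorbate was -3.47 (SE 0.47, edgeR adjusted p = 0.0189). Since it entered the test through the libraries where it was high, this value is a description only.

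The KRAB genes that the protein scan found under other names gave estimates of the same sign. By the same protein scan and count floor there were 18, among them Rbak, the rest known by clone or locus names. The scan placed no Zkscan gene among them. Of that family, described below, Zkscan8 fell and Zkscan14 and Zkscan17 rose with ascorbate, so the shared sign covers only genes that the scan scored above its line. With ascorbate all 18 estimates were below 0, the median was -0.92 and none passed, with 11 under an unadjusted p of 0.05 and a smallest edgeR adjusted p of 0.0509. DESeq2 called 7 of them lower and limma voom 3, against 11.0% and 8.33% of all genes. They summed to 87.3 and 84.4 CPM with ascorbate, 145 and 148 CPM in the labelled restored libraries, 161 CPM in the primary library and 128 to 180 CPM with PBS. The ascorbate sums lay below every other library. In the labelled restored libraries their median against PBS was -0.09. The median transcript GC content of these 18 was 41.1%, below that of the KRAB members, and with the offset for length and GC content the ascorbate median was -0.72. Another 110 genes with 3 or more C2H2 fingers, other names and a KRAB score under the line had a median of -0.17 with ascorbate. Of these, 6 fell and 2 rose (7.27%, against 2.86% of all genes tested). Zscan and Zkscan genes that met the floor and the finger number are counted here, so this set may hold genes with a variant box.

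The corepressor and heterochromatin genes through which KRAB proteins act showed 1 call. Of 24 genes listed, 24 were tested, 18 estimates with ascorbate were below 0 with a median of -0.30, and only Suv39h2, a histone H3 lysine 9 methyltransferase, fell (4.17%, against 2.86% of all genes). It had 6.42 and 7.36 CPM with ascorbate, 13.4 and 14.2 CPM in the labelled restored libraries, 26.6 CPM in the primary library and 20.8, 13.8 and 18.5 CPM with PBS (-1.37, SE 0.24, edgeR adjusted p = 0.0315). Trim28 itself had 628 and 719 CPM with ascorbate, 526 and 452 CPM in the labelled restored libraries, 577 CPM in the primary library and 519, 628 and 562 CPM with PBS, an estimate of 0.23 with ascorbate that did not pass. Setdb1 had 72.4 and 75 CPM with ascorbate, 81.7 and 67.0 CPM in the labelled restored libraries and 105 to 111 CPM with PBS (-0.55 with ascorbate, edgeR adjusted p = 0.0793). Cbx5, which encodes HP1 alpha, had 174 and 230 CPM with ascorbate, 230 and 128 CPM in the labelled restored libraries, 686 CPM in the primary library and 352 to 542 CPM with PBS (-1.08 with ascorbate, edgeR adjusted p = 0.0737). In the labelled restored libraries 22 of the 24 estimates were below 0, with a median of -0.45, no call in edgeR's test and 12 at an unadjusted p below 0.05.

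Other zinc finger families had few calls with ascorbate in number, to be read against 2.86% of all genes tested. Of 33 Zbtb genes tested, Zbtb3 (-2.04) and Zbtb26 (-1.89) fell (6.06%) and the median was -0.09. Of 17 Zscan and Zkscan genes tested, Zkscan8 (-2.07) and Zscan22 (-1.21) fell, Zkscan14 (1.43) and Zkscan17 (0.79) rose, which makes 23.5%, and the median was -0.10. Zkscan14 had 38.5 and 30.7 CPM with ascorbate, against 11.6, 14.8 and 11.9 CPM with PBS. Of 15 Zc3h genes tested, Zc3h12a, an RNase that degrades inflammatory messages, rose (1.12, 6.67% of the family), and the median was -0.05. None of 19 Klf and Sp genes passed in edgeR's test (6 with an unadjusted p below 0.05), and of 18 Zdhhc genes, whose zinc finger motif belongs to palmitoyltransferases, Zdhhc6 fell (-0.95, 5.56% of the family).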

How the data were processed

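RNA was sequenced from AE9a-positive spleen cells of 8 mice, with poly(A) selection per the labels' protocols. The authors deposited raw counts per gene and FPKM per gene. STAR, featureCounts, DESeq2 and the builds mm10 and GRCm38 are named per the submitters' processing notes, with no versions or roles, and the strand setting and annotation release are not given in the sources used here. The deposited FPKM were used for levels and, as count over FPKM, for transcript lengths.

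Counts were fitted with edgeR 4.0.16 (TMM scaling, quasi-likelihood test, R 4.3.3) on the 7 secondary libraries together, so the groups share an estimate of spread, and on all 8 libraries for the primary mouse. P-values were adjusted by Benjamini-Hochberg over all genes tested, with a threshold of 0.05. The fit was tested on simulated data: for ascorbate against PBS knockdown, with 11899 genes, it recovered 82.3% of genes changed by a log2 fold of 2 and 94.7% of those changed by 3.

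Similar genes lie between the 10th and 90th percentiles of the members in length and level and meet the same floor of 10 counts. KRAB boxes were scored in windows of 35 residues with a line at 30 bits; members scored 17.4 or less, or 35.5 or more. Named genes were the called members and those with the smallest p in each direction of a comparison, the highest levels, the widest PBS ranges and a list with known roles; further genes were chosen after their values were seen. The members and lists were chosen with earlier results of these data known, and the KRAB split, the GC bands and the promoter motif were added after seeing the data. Alternatives were DESeq2 1.42.0, limma 3.58.1 (voom, and log2 FPKM with a pseudocount), other scalings, filters and offsets, and each library left out.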

Additional observations from a re-analysis of the deposited data

How the results depend on the processing

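For ascorbate against PBS knockdown, edgeR called 20 members (2.86% of all genes passed), DESeq2 71 (11.0%) and limma voom 47 (8.33%). The fit with no filter on low counts called 40 (3.21% of all genes) and the fit of only the compared groups 39 (7.22%). The fit of limma on log2(FPKM + 1) called 2 (0.404%). Member calls thus went up and down along with calls over all genes in most of these fits. Among members that share no exonic bases there were 12 calls. Leaving out 1 library gave 0 to 38 calls, medians over members of -0.40 to -0.18, and gaps to the similar genes of -0.27 to -0.07. The length and GC offset gave a median of -0.16. The cause of these differences was not tested. For the labelled restored libraries against PBS knockdown, where edgeR called none, DESeq2 called 34 (16.1% of all genes passed), edgeR with DESeq2 size factors 4 (3.02% of all genes) and no filter 16 (5.41%), and leaving out 1 library gave 0 to 35. Against ascorbate, DESeq2 called 20 (3.66% of all genes) and no filter 2 (0.423%). For the primary library, DESeq2 called 1 and limma voom 2, and the median ran from 0.01 to 0.24 with 1 library left out. Scaling by library totals moved the median of all genes with ascorbate to -0.12, with KRAB members at -0.68. The called members kept their sign in every count-based fit, while the median of the labelled restored libraries against PBS knockdown, -0.09, was 0.03 with the length and GC offset. No paired analysis was possible because the replicate numbers are mouse numbers and no groups share one. Groups of 1 to 3 mice limit every call, and counts of genes near the floor are few.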
